A study of Mus musculus with 16 samples.

Results

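Regulatory T cells of the liver-draining lymph node were taken from 3 CITE-seq libraries, in which RNA and antibody-bound surface protein were counted in the same single cells. A member was a cell with at least 1 UMI (a counted RNA molecule) of Foxp3 and at least 1 UMI of the CD3 chain genes Cd3d, Cd3e or Cd3g, and with no UMI of Cd79a, Fscn1 or Cd8b1, which mark B cells, mature dendritic cells and CD8 T cells. The rule found 158 cells among 19543 that passed the cell filters (at least 1000 UMIs and 500 genes, at most 10% mitochondrial UMIs) and among 6559 T cells. They were 73 of 6542 cells at D0, 35 of 6248 cells at D5 and 50 of 6753 cells at D19. Foxp3, a gene on chromosome X (7579676 to 7595243 in GRCm38.p6), chose the cells. The members were selected on the measured UMIs of the 7 genes named here, so the level of Foxp3 and the contrast with Foxp3-negative cells are given as description.

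All mice were C57BL/6J, and male mice were used for single-cell sequencing. D0 mice were untreated, and the others ate chow with 0.1% DDC (3,5-diethoxycarbonyl-1,4-dihydrocollidine), an agent that injures bile ducts and causes cholestasis, until day 5 or day 19. The sample title and treatment label give the middle library as D5 while its description gives D6, and it is called D5 here. Hepatoduodenal and celiac nodes were pooled and digested with collagenase D, and 5 sorted fractions (live singlets, CD45+ CD11c-, CD45+ CD11c+, Pdpn+, and CD45- Pdpn-) were mixed at equal ratios. The share of T cells among all cells was therefore set in part by the sort, and shares are given here within CD4 T cells. The age given for liver isolations is 6 to 12 weeks, and the number of mice behind each library is not given in the sources used here. With 1 library per day, no difference between days or cell classes could be tested. The 95% intervals below cover counting error and not the spread between mice or cells.

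Regulatory T cells are CD4 T cells that restrain immune responses to self and harmless antigens, and the transcription factor Foxp3 maintains their programme. They carry the high-affinity interleukin-2 receptor, take up interleukin-2 that other T cells make, and use the inhibitory receptor CTLA-4 to limit costimulation by dendritic cells. In lymph nodes, resting cells that keep the homing receptor CCR7 are found beside effector cells that have lost it, and effector cells can move to tissues such as liver.

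Surface protein gave a check that the RNA rule did not use. The rule did ask for CD3 chain RNA and no Cd8b1 RNA, so the CD3 and CD8a tags were less independent of it than the CD4 tag. These tags bear on the CD4 T cell part of the label and not on the regulatory part. Each antibody carried a DNA barcode that was counted as a tag. The barcodes of the 3 tags that separate CD4 T cells from B and CD8 T cells are shown because the label check below rests on them, and all 15 bases are in capitals because the whole barcode was matched.
CD3: GTATGTCCGCTCGAT
CD4: AACAAGACCCTTGAG
CD8a: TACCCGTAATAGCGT

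The members carried CD4 and CD3 on their surface and little CD8a. Their median CD4 tag count was 518, 970 and 257 UMIs in the D0, D5 and D19 libraries, against medians of 12, 9 and 3 in B cells and 8, 9 and 2 in CD8 T cells of the same libraries. Their median CD3 tag count was 127, 145 and 37.5 UMIs, against 3, 3 and 1 in B cells. The CD8a tag gave medians of 24, 23 and 9.5 UMIs in the members and 1524, 2068 and 1044 in CD8 T cells. CD4 quartiles of the members (424 to 699 at D0, 825.5 to 1284.5 at D5 and 202 to 445.75 at D19) lay far above the B cell medians in each library. All 3 T cell classes had the fewest CD3 tag UMIs at D19, so tag counts were compared within a library.

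**Figure D1:**
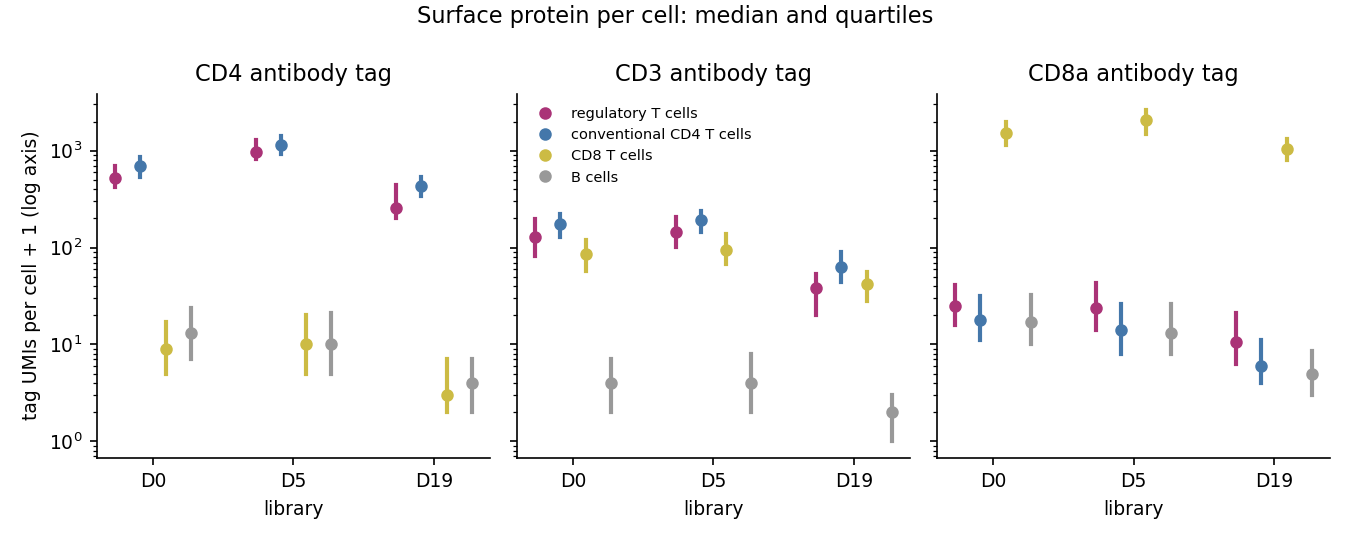
Antibody tag UMIs per cell plus 1 (log axis) for CD4, CD3 and CD8a in 4 cell classes of each library, with points at the median and bars from the lower to the upper quartile. Regulatory T cells sit with conventional CD4 T cells on the CD4 and CD3 tags, and their CD8a medians of 24, 23 and 9.5 UMIs lie far below those of CD8 T cells.

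In every library the members had fewer CD4 and CD3 tag UMIs than conventional CD4 T cells, defined as T cells under the same filters with no Foxp3 UMI and at least 1 Cd4 UMI (518, 324 and 328 cells). The ratio of medians was 0.751 at D0, 0.839 at D5 and 0.599 at D19 for CD4, and 0.734, 0.761 and 0.605 for CD3. The 2 tags therefore differed by similar factors within each library. The members' total over all 11 tags was lower as well, with medians of 737, 1248 and 408.5 UMIs against 925.5, 1428 and 536, and its part in the lower CD4 and CD3 tags was not tested. The conventional cells were required to hold a Cd4 UMI and the members were not, and Cd4 RNA was found in 25 of 73, 20 of 35 and 14 of 50 members.

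Counted against the B cells' 95th percentile of each library, a bound added after seeing the data, 72 of 73 members at D0, all 35 at D5 and 49 of 50 at D19 were above it for CD4. For CD3 these counts were 72, 35 and 47, and for CD8a they were 6, 4 and 7. The planned 99th percentile gave 20 of 73 (27.4%), 35 of 35 and 45 of 50 (90%) for CD4. For CD3 it gave 64 of 73 (87.7%), 35 of 35 and 41 of 50 (82%), and for CD8a 0, 1 and 2 members. Above it for both CD4 and CD3 and not for CD8a were 20 of 73, 34 of 35 and 37 of 50. At D0 that percentile was 684 CD4 tag UMIs, against 286.5 at D5 and 155 at D19, and 51.2% of conventional CD4 T cells at D0 passed it. For the CD4 tag, the share above it at D0 was thus low in both CD4 classes.

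Other RNA markers of the label were present. Ikzf2, on chromosome 1 (69531207 to 69687351 in GRCm38.p6), encodes the transcription factor Helios. It stood at 412 CPM (summed UMIs of the gene scaled to the same total of all genes) at D0, 515 at D5 and 455 at D19, in 46, 21 and 33 members, against 46.3, 76.3 and 75.2 CPM in conventional cells. Ctla4, on the same chromosome (60909025 to 60915832), stood at 371, 446 and 544 CPM in 47, 26 and 35 members, against 63.1, 52.5 and 96.5 CPM. The 3 libraries did not overlap with the conventional cells for either gene. At least 1 of Ikzf2, Ctla4 and Il2ra was found in 66 of 73 members at D0, 33 of 35 at D5 and 47 of 50 at D19, and all 3 together in 15, 7 and 14.

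Depth per cell differed between libraries, with member medians of 3600, 5178 and 2889.5 UMIs. After each cell was thinned to 1000 UMIs, 35.6%, 22.9% and 34% of members held an Ikzf2 UMI (63%, 60% and 66% before thinning). The thinned share was 3.28%, 4.94% and 5.49% in conventional cells and at most 0.198% in B cells, which should lack it. For Ctla4 the thinned shares were 27.4%, 45.7% and 44% in members, 5.21%, 3.4% and 7.62% in conventional cells and at most 0.353% in B cells. Foxp3 itself was found in 1 of 2014 B cells at D0, 1 of 3026 at D5 and none of 1983 at D19, which allows a share of cells with a UMI of up to 0.151% by 3 counts of 1983 (exact upper limit 0.186%). Among T cells with Cd8b1, 7 of 1162 (0.602%), 7 of 738 (0.949%) and 2 of 1208 (0.166%) held a Foxp3 UMI. Free RNA, read from barcodes with at most 100 UMIs, was estimated at 1.57% to 1.8% of the UMIs of T cells.

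Of the members, 39 at D0 held exactly 1 Foxp3 UMI, and over all libraries 94 held 1, 40 held 2 and 24 held 3 or more. Just inside and just outside the threshold, Ikzf2 stood at 412 CPM in cells with 1 Foxp3 UMI and 61.9 CPM in those with none, and Ctla4 at 398 and 66.4 CPM. Il2ra went from 17.3 CPM with none to 185 with 1, 255 with 2 and 424 with 3 or more. Tnfrsf18 stood at 82.1, 139.6, 282 and 363 CPM. These values pool 3 libraries, and the order did not hold in each: Tnfrsf18 at D19 ran 78.3, 134, 107 and 89.4 CPM, and Il2ra at D19 ran 33.2, 261, 448 and 357 CPM.

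Members made up 12.4% of CD4 T cells at D0 (73 of 591, 95% exact interval 9.81% to 15.3%), 9.75% at D5 (35 of 359, 6.89% to 13.3%) and 13.2% at D19 (50 of 378, 9.98% to 17.1%). The 3 intervals overlapped, so no change in share was detectable at this depth. Their share of all T cells was 2.83%, 2.36% and 2.01% (intervals 2.22% to 3.54%, 1.65% to 3.27% and 1.49% to 2.64%). The order of the days turned on the rule: with 2 or more Foxp3 UMIs required it was 6.16%, 5.26% and 3.53%, and with cells thinned to 1000 UMIs first it was 19.2%, 13.9% and 18.2% of the CD4 T cells that remained. Conventional cells had to hold a Cd4 UMI and members did not. With members also required to hold one, the share was lower, at 4.60%, 5.81% and 4.09%, and D5 was the highest.

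**Figure D2:**
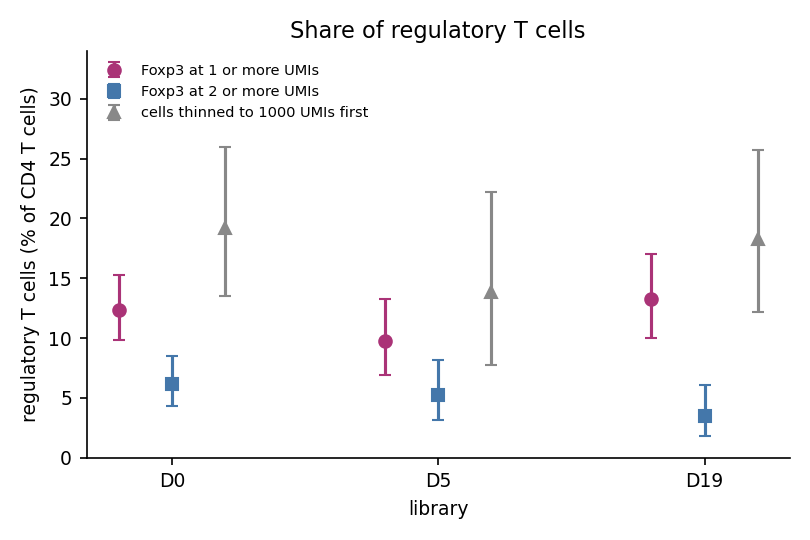
Regulatory T cells as a percentage of CD4 T cells in each library under 3 definitions, with points at the share and bars at the exact 95% binomial interval, which covers counting error only. Within each definition the intervals of the 3 libraries overlap, and D5 is lowest at 1 or more Foxp3 UMIs while D19 is lowest at 2 or more.

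Some libraries' members included cells that stood apart, and these are given before the gene results that rest on them. At D19, 3 members of 15223 to 27062 UMIs were the deepest cells and held 28.7% of all member UMIs of that library, and they were the only members there with Mki67. At D5, 3 members had a CD11b tag count above 719 UMIs, the 99th percentile of conventional cells, and held 20.8% of member UMIs. The same 3 members held all 376 UMIs of the myeloid marker list at D5. At D0, 4 members had 10 or more UMIs of H2-Aa, a gene of antigen-presenting cells, and held 11.9% of UMIs, with 1 such cell at D5 and 1 at D19. Genes of natural killer cells reached 5 UMIs in 3 members at D0, none at D5 and 3 at D19. Among these, 1 member at D0 had 39 such UMIs, with 8 CD4 and 1 CD3 tag UMIs. Another, at D19, had 8 such UMIs, with 0 CD4 and 1 CD3 tag UMIs. Their CD4 tag counts were the lowest among members of their libraries and below the B cell medians of 12 and 3. For these cells the surface tags did not bear out the CD4 T cell label, and they were kept as members. Of 9 genes defining other lineages, at least 1 UMI was found in 20, 11 and 16 members. Scrublet gave each cell a doublet score, and the 342, 312 and 365 cells with the highest scores were marked. These numbers were fixed by the cell count, at 0.8% per 1000 cells, and are not doublets called. Of the marked cells 1, 0 and 0 were members. No barcode was shared between the members of different libraries.

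**Figure D3:**
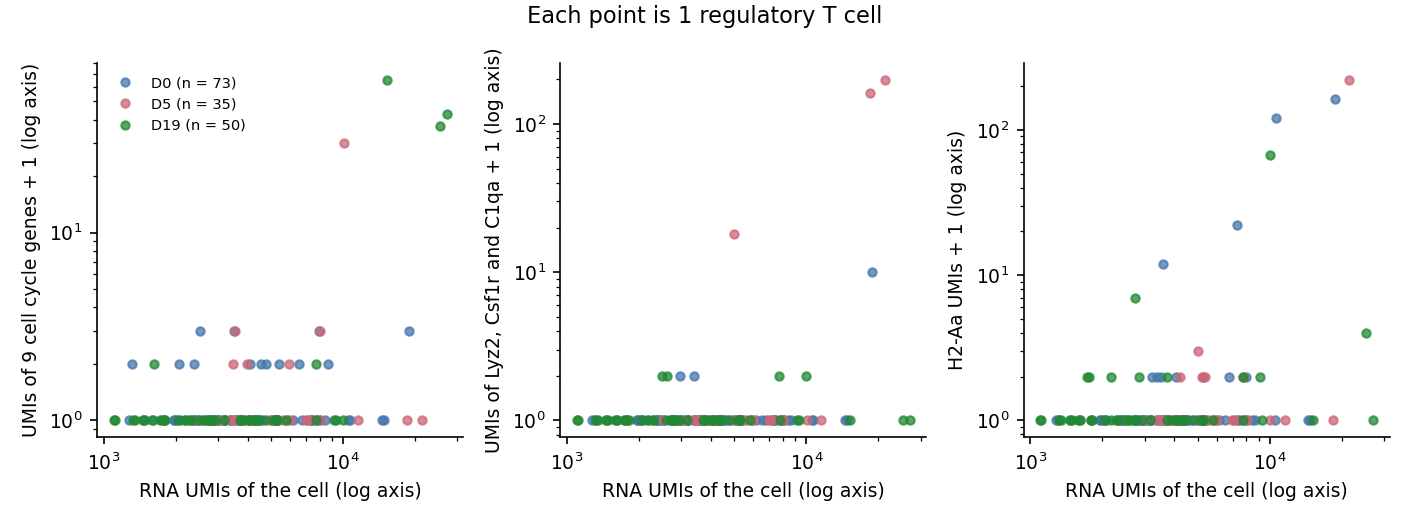
Each point is 1 of the 158 regulatory T cells, coloured by library, with its RNA UMIs on the x axis and, on the y axes, its UMIs plus 1 of 9 cell cycle genes, of the myeloid genes Lyz2, Csf1r and C1qa, and of H2-Aa (all axes log). The 3 D19 cells with many cell cycle UMIs are the deepest of that library, and the cells with 10 or more myeloid UMIs are 3 cells of D5.

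Regulatory and conventional CD4 T cells were then compared within each library. A gene was called higher or lower when log2(CPM + 10) differed by at least 0.5 in the same direction in 3 of 3 libraries. Of 3105 genes with 50 or more UMIs in each library, 72 were higher (2.32%) and 34 lower (1.1%) in the members, with a median difference of 0.07 over all genes. Of 17 core regulatory T cell genes, 9 had enough UMIs and all 9 of these were higher, with a median difference of 2.20. This list holds genes known to accompany Foxp3, by which the cells were chosen.

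By the smallest difference over the libraries Il2ra headed the genes that were higher in the members, followed by Ikzf2, Ctla4, Tnfrsf4 and Il2rb. Il2ra, the alpha chain CD25, stood at 229.6 CPM at D0, 190.4 at D5 and 314 at D19 in the members, against 12.8, 14.1 and 33.2 in conventional cells, with a smallest difference of 2.91 on the log2 scale. Il2rb, the shared beta chain, stood at 221, 241 and 242 CPM against 40.2, 40.8 and 56.2. Of the 9 measured genes of interleukin-2 and STAT5 signalling, these and Socs1, a feedback inhibitor of cytokine signalling, were higher and none was lower, beside 2.32% higher over all genes. Il2ra and Il2rb are also counted in the core list. Il2 itself had no UMI in any member, against a floor of 3 UMIs at 8.83, 13.9 and 12.7 CPM, and conventional cells held 2.7, 4.86 and 28.5 CPM. A difference was therefore not detectable at D0 and D5.

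Of 9 measured genes of the tumour necrosis factor receptor and NF-kappaB list, Tnfrsf4, Tnfrsf18 and Traf1 were higher and none was lower, beside 2.32% and 1.1% over all genes. Tnfrsf4 and Tnfrsf18 are also counted in the core list. Tnfrsf4, encoding OX40, stood at 291, 269 and 378 CPM against 63.8, 34.5 and 67.3 in conventional cells. Tnfrsf18, encoding GITR, stood at 253, 260.0 and 123 CPM against 83.4, 82.6 and 78.3, so its margin at D19 was 0.59 on the log2 scale. Traf1, an adaptor of these receptors, stood at 229.6, 144 and 199.7 CPM against 96.9, 64.1 and 74.4.

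Further core genes included Izumo1r, the folate receptor family member FR4, at 612, 399 and 289 CPM against 125, 107 and 108. Capg, an actin-capping protein, stood at 271, 186 and 178 CPM against 58.4, 62.7 and 49.1. Nt5e, the ectoenzyme CD73 that makes adenosine, stood at 100.1, 78.9 and 102 CPM against 21.3, 21.9 and 32.4. Outside the list, the 10 genes with the largest smallest difference also held Bmyc (221, 260.0 and 229 CPM against 69.9, 55.9 and 53.8), S100a10 (972, 919 and 1135 CPM against 359, 325 and 321) and Hopx (209, 74.3 and 174 CPM against 38.2, 19.4 and 61.7), a homeodomain-only cofactor.

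Core genes too low for the 50 UMI minimum pointed the same way where they had counts. Nrp1, a semaphorin receptor, stood at 127, 116 and 102 CPM against 18.9, 21.4 and 12.7. Ikzf4, encoding the Helios relative Eos, stood at 97.2, 46.4 and 72.2 CPM against 7.09, 7.77 and 4.75. Lrrc32, which holds latent TGF-beta at the cell surface, had 21, 7 and 9 UMIs, and Gpr83 had 10, 12 and 20. Tigit was at 0, 2 and 0 UMIs, and Itgb8 and Entpd1 had at most 6 in a library, so nothing about these 3 could be read at this depth.

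**Figure D4:**
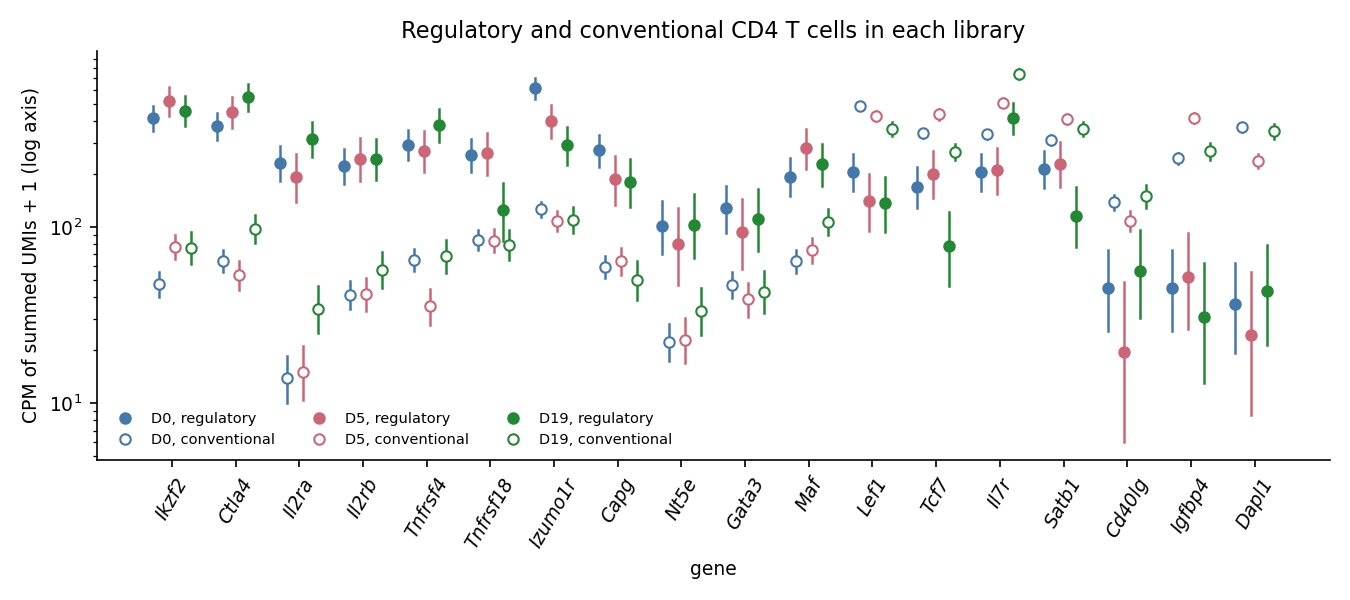
CPM of summed UMIs plus 1 (log axis) of 18 genes in regulatory (filled) and conventional (open) CD4 T cells of each library, with exact Poisson 95% intervals that cover counting error only. Core genes such as Il2ra and Ctla4 are higher in regulatory cells of all 3 libraries, and Lef1, Tcf7, Igfbp4 and Dapl1 are lower.

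Part of the genes of resting T cells, and most of those that regulatory T cells hold low, were lower. Dapl1, a marker of resting T cells, stood at 35.3, 23.2 and 42.5 CPM in the members against 366, 236 and 347. Igfbp4 stood at 44.2, 51.1 and 29.7 CPM against 243, 413 and 267, and Pdlim4 had 1, 1 and 0 UMIs against 58.8, 65.1 and 61.7 CPM. Lef1 and Tcf7, transcription factors of resting T cells, were lower in all libraries, Lef1 at 203, 139 and 136 CPM against 482, 426 and 359. Of 15 measured genes of the resting and central list, 6 were lower and none was higher, namely Dapl1, Lef1, Tcf7, Igfbp4, Il7r and Satb1. Of the 8 measured genes listed as held low in regulatory T cells, 6 were lower, and all of these but Cd40lg are also counted in the resting list. Over all genes 1.1% were lower. Among them Cd40lg, the helper ligand for B cells and dendritic cells, stood at 44.2, 18.6 and 55.2 CPM against 137, 107 and 148.

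The largest differences in that direction were the haemoglobin genes Hba-a1, Hba-a2, Hbb-bs and Hbb-bt. Of the conventional cells' haemoglobin UMIs, 98.3%, 98% and 98.3% lay in 2, 1 and 2 cells, and the members held 44, 26 and 23 haemoglobin UMIs.

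Effector features were present in part. Of 10 measured effector and tissue genes, 2 were higher: Gata3, a transcription factor also used by type 2 helper cells, at 127, 92.9 and 110.5 CPM against 45.9, 37.9 and 41.9, and Maf, which takes part in interleukin-10 control, at 191, 279 and 225 CPM against 62.8, 72.9 and 106. Ifi27l2a, an interferon-induced gene, was higher at 868, 780.0 and 646 CPM against 516, 360.0 and 358, the 1 gene called of 6 measured in the interferon list. Pmepa1, a target of TGF-beta signalling, and Itga4, an integrin chain used to leave the blood, were the called genes of the TGF-beta and homing lists, with 7 and 10 measured. Of the 7 measured genes of antigen receptor signalling, Myc and Ifrd1 were higher. These counts stand beside 2.32% higher over all genes, and with 1 or 2 genes each they describe those genes and not their lists.

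Suppressive molecules were sparse in RNA. Il10 had 9, 10 and 1 UMIs in 4, 3 and 1 cells of the 3 libraries. Ebi3, a subunit of interleukin-35, had 11, 4 and 2 UMIs and Il12a had none. Gzmb had 1, 5 and 0 UMIs, and Lag3 had 6, 11 and 2. Areg, which encodes amphiregulin, a growth factor linked to tissue repair, had 13, 6 and 17 UMIs in 8, 2 and 6 cells. Of the 13 listed molecules, Icos and Tgfb1 had enough UMIs, and neither was called in either direction. Icos, a costimulatory receptor, stood at 147, 97.5 and 110.5 CPM against 78.7, 55.4 and 81.5. The 12 listed genes of helper T cell fates summed to 142, 74 and 57 UMIs, which is 418, 344 and 242 CPM against 169, 189 and 222 in conventional cells, with 8, 6 and 7 of them holding a UMI. At D0 the adaptor gene Sh2d1a (78) and Stat3 (43) held most of these UMIs, while Tbx21 and Il21 had none in any member.

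The members were not uniform. Of 386 genes with enough UMIs in each library, the 10 most variable among members were Malat1, Trbc1, Junb, Tmsb4x, Rgs1, Actb, Trbc2, Ifi27l2a, Fos and Klf2. Their mean residual variance ran from 15.9 for Malat1 to 4.48 for Klf2, beside a median of 1.65 over all 386. Trbc1 and Trbc2 are alternative constant regions of the T cell receptor beta chain, of which a T cell uses 1.

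By day, a gene was called when log2(CPM + 10) differed by at least 0.5 between the members of 2 libraries. At D5, 157 of 1381 genes with 50 or more UMIs (11.4%) were higher than at D0 and 171 (12.4%) were lower. At D19, 244 of 1383 (17.6%) were higher and 323 (23.4%) were lower. Both comparisons share the D0 library, and the median over all genes was -0.06 and -0.04. TMM scaling moved the D5 median to -0.16 and gave 111 higher and 244 lower genes there. The same genes in conventional cells, which were more numerous, gave 73 higher and 80 lower at D5 and 91 higher and 201 lower at D19. The counting intervals of the 2 libraries did not overlap for 59 of the higher and 50 of the lower genes at D5, and for 126 and 163 at D19. Of the higher genes, 38 at D5 and 102 at D19 had at least 50% of their UMIs in 3 cells.

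Among core genes Izumo1r and Capg were lower on both days, and Ctla4 was higher at D19. Of 10 measured core genes none was higher at D5 and 2 were lower, beside 157 higher and 171 lower of 1381 over all genes, and of 11 at D19 Ctla4 was higher and 3 were lower, beside 244 and 323 of 1383. Izumo1r was lower on both days, by -0.60 and -1.06 on the log2 scale, from 612 CPM at D0 to 399 and 289, with intervals that did not overlap D0. Capg was lower by -0.52 and -0.58, with intervals that overlapped D0 on both days. Tnfrsf18 was lower at D19 by -0.98, from 253 to 123 CPM. In conventional cells the changes of these 3 genes lay between -0.21 and 0.09, while Ctla4 at D19 was 0.54 in both classes. Of the measured core genes, 1 was higher and 1 lower in conventional cells at D5, and 3 were higher and none lower at D19. Over all genes 73 were higher and 80 lower in conventional cells at D5, and 91 and 201 at D19. Ctla4 at D19 was 0.38 without members holding a UMI of another lineage, and 0.50 (short of the fold) without those of high CD11b tag. The D5 calls turned on few cells. Without the 3 deepest members of each library, or without those of high CD11b tag, Ctla4 and Ikzf2 were higher at D5 and no core gene was lower, with Izumo1r at -0.43 or -0.36. Ikzf2 differed by 0.32 and 0.14, Il2ra by -0.26 and 0.44, and Tnfrsf4 by -0.11 and 0.36, none past the fold with all members.

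Most measured genes of resting and central T cells were lower at D19. At D5, 4 of 12 measured were lower and none was higher, beside 171 and 157 of 1381 over all genes, while 2 of 12 were lower without the members of high CD11b tag (169 of 1187 over all genes) and 2 of 11 without the 3 deepest members of each library (140 of 1068). At D19, 9 of 11 were lower and Il7r was higher, beside 323 and 244 of 1383 over all genes, with a list median of -0.62 beside 0.02 in conventional cells, where 2 were higher and 2 lower. Klf2, a transcription factor that drives homing receptor genes, went from 1016 CPM at D0 (interval 911 to 1129) to 515 at D5 (424 to 621) and 446 at D19 (365 to 540.1). Ccr7, the receptor that guides T cells into and within nodes, went from 365 to 149 and 123 CPM, which is -1.24 and -1.49 on the log2 scale. Klf2 and Ccr7 were also lower in conventional cells, by -0.93 and -0.57 at D5 and by -0.78 and -0.57 at D19.

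Other resting genes passed the fold at D19 in the members and were not lower past it in conventional cells. Satb1, a chromatin organiser, was at 212, 227 and 115 CPM, a difference of -0.83 at D19 beside 0.19 in conventional cells, and -0.27 without the 3 deepest members of each library. S1pr1, the receptor for exit from the node, was at 309, 214 and 208 CPM, -0.55 beside 0.21. Tcf7 was at 168, 199.6 and 76.5 CPM, -1.04 at D19 beside -0.33. Of the resting genes lower at D19, Klf2, Ccr7 and Tcf7 had counting intervals that did not overlap D0. Those of Satb1, S1pr1, Lef1, Foxo1 and Foxp1 overlapped D0. The difference between the 2 classes was not tested. Il7r, the interleukin-7 receptor, was at 203, 209 and 412 CPM, and it was higher at D19 in both classes, by 0.99 and 1.11.

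The fall of the resting list was smaller without the 3 deepest members of each library, at 5 of 11 lower and 1 higher, beside 232 lower and 110 higher of 1053 over all genes. Without members holding a UMI of another lineage it was 8 of 9 lower and 1 higher, beside 202 and 148 of 823. With 2 or more Foxp3 UMIs required it was 3 of 7 lower and 1 higher, beside 143 and 114 of 571. Homing genes overlap with this list. At D19, 6 of 9 measured were lower and none was higher, beside 323 lower and 244 higher of 1383 over all genes, among them S1pr1, Klf2 and Ccr7 as above, Selplg, an adhesion ligand, at -0.67 and Itgb7, an integrin chain used for entry to the gut, at -0.87. Itgb7 was lower in conventional cells too (-1.02). Without the 3 deepest members of each library 4 of the 9 were lower, and Itga4 and Itgb1 were higher.

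**Figure D5:**
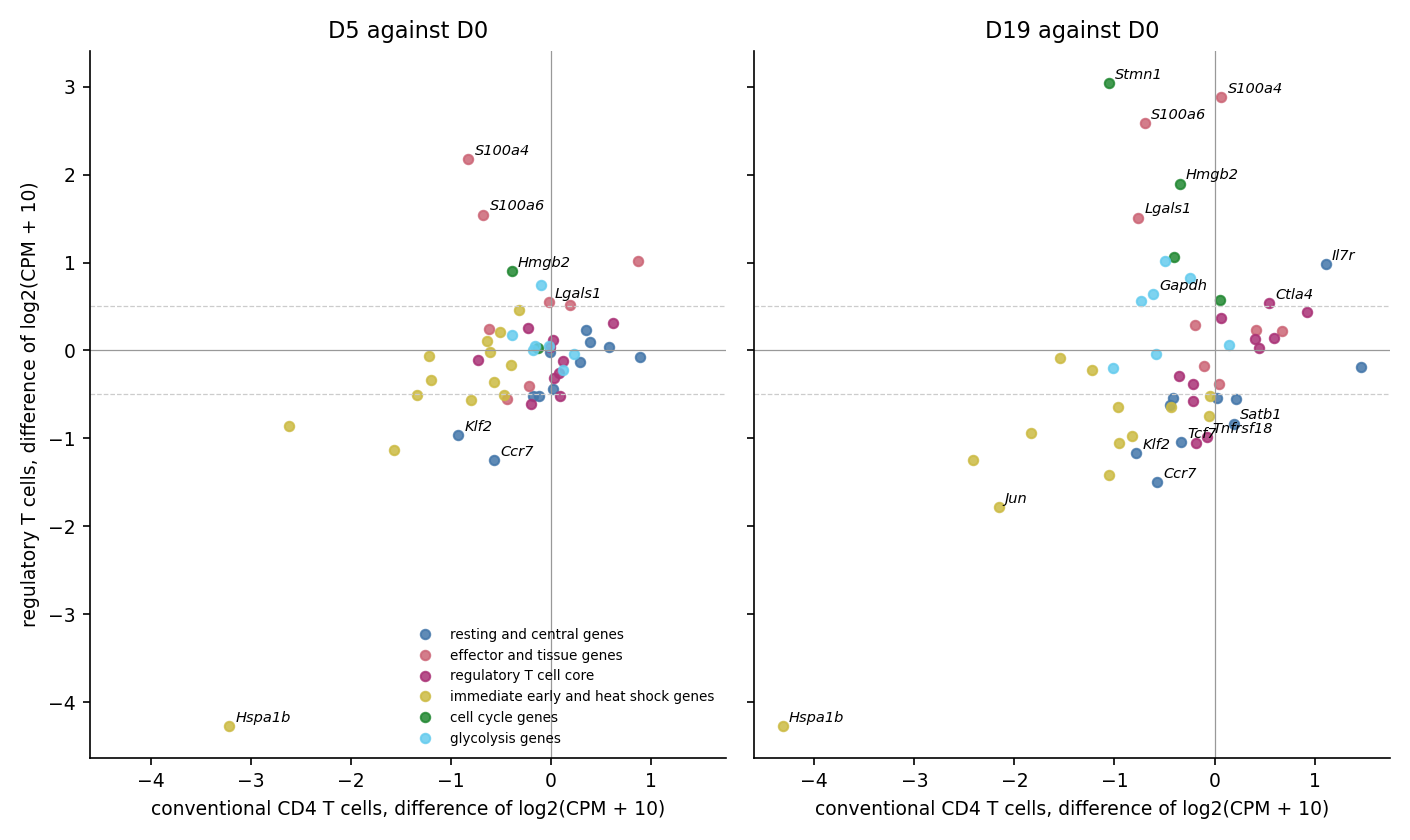
Difference of log2(CPM + 10) from D0 in conventional (x) and regulatory (y) CD4 T cells for genes of 6 lists, without those not reported, at D5 and D19, with dashed lines at 0.5 and -0.5. The heat shock gene Hspa1b and Jun are low in both classes, while S100a6 at 2.58 in regulatory cells at D19 is -0.70 in conventional cells.

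S100a4 and S100a6, small calcium-binding proteins of effector and memory T cells, were the largest changes in the effector list. S100a4 stood at 124 CPM at D0, 594 at D5 and 977 at D19, against 211, 115 and 222 in conventional cells. S100a6 stood at 221, 664 and 1372 CPM, against 235, 143 and 141. The differences in the members were 2.18 and 2.89 for S100a4 and 1.55 and 2.58 for S100a6. With 2 or more Foxp3 UMIs required, S100a6 was 0.19 at D5 and did not pass the fold. Both genes lay in few cells, 12, 11 and 13 members for S100a4 and 12, 13 and 14 for S100a6.

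A member with at least 5 UMIs of S100a4 and S100a6 together was counted as a carrier. There were 6 of 73 (8.22%) at D0, 7 of 35 (20%) at D5 and 12 of 50 (24%) at D19, with overlapping intervals of 3.08% to 17.0%, 8.44% to 36.9% and 13.1% to 38.2%. In conventional cells the shares were 9.07%, 5.86% and 7.62%. Carriers were deep cells, with median UMIs of 9213.5, 8018 and 6043.5 against 3591, 5086.5 and 2732.5 in other members, and every carrier was above the B cells' 95th percentile of the CD4 tag. The 3 deepest members held 42.7%, 52.4% and 68.4% of both genes' UMIs. Without them the differences were 0.97 and 2.05 for S100a4 and 2.18 and 2.13 for S100a6. Without the members of high CD11b tag they were 1.33 at D5 for S100a4 and 1.19 for S100a6. The summed myeloid marker list was also higher at D5 (32.4 CPM at D0 and 1746 at D5), and all its D5 UMIs lay in those members of high CD11b tag. After thinning to 1000 UMIs, 8.22%, 20% and 20% of members held S100a4, against 6.76%, 5.56% and 8.23% of conventional cells.

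In all, 5 of 8 measured effector genes were higher at D5 and 1 lower, and 3 were higher at D19 with none lower, beside 11.4% and 17.6% higher over all genes. Maf (0.52) and the integrin chain Itgb1 (1.02, from 100.1 to 214 CPM) were among those at D5, where Itgb1 was 0.87 higher in conventional cells as well. With TMM scaling Maf (0.41) and Lgals1 (0.44) did not pass the fold at D5. Lgals1, encoding galectin-1, stood at 277, 409 and 807 CPM. Its difference of 1.51 at D19 became -0.37 without the 3 deepest members. At D5 without members holding a UMI of another lineage, 2 of 6 were higher and 1 lower, beside 67 and 127 of 781 over all genes. With 2 or more Foxp3 UMIs required, 1 of 5 was higher at D5 and 2 were lower, beside 78 and 124 of 637. Gata3 (-0.41 and -0.18) did not pass the fold on either day.

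Nr4a1, an early gene of antigen receptor signalling, was at 221, 102 and 89.2 CPM, which is -1.04 and -1.22, and it was -1.33 and -0.33 in conventional cells. Of 8 measured genes of the tumour necrosis factor receptor and NF-kappaB list, 3 were lower on each day and none was higher, beside 12.4% lower at D5 and 23.4% at D19 over all genes. In conventional cells 4 of the 8 were lower and none higher at D5, beside 80 and 73 of 1381 over all genes. There none was lower and 1 was higher at D19, beside 201 and 91 of 1383. The list median was -0.14 at D5 and -0.24 at D19 in the members, and -0.35 and -0.01 in conventional cells. Tnfaip3, which encodes the inhibitor A20, was at 344, 181 and 166 CPM, which is -0.89 and -1.01 beside -0.16 and 0.07 in conventional cells. Nfkbia, the inhibitor I-kappaB alpha, was at 813, 501 and 421 CPM, which is -0.69 and -0.93 beside -0.61 and -0.21. Without the 3 deepest members of each library Nfkbia was -0.50 (short of the fold) at D5 and -0.33 at D19, and 2 of the 8 were lower at D19, beside 232 of 1053 over all genes.

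Among 9 measured interleukin-2 and STAT5 genes at D19, Cish (58.9, 46.4 and 140.2 CPM) and Socs1 were higher, both being feedback targets of STAT5, while Mcl1, Pim1 and Il2rg were lower. The 3 lower genes of 9 stand beside 23.4% lower over all genes. Cish reached the minimum of 50 UMIs only through D19, so the 2 higher are not read against the 17.6% higher over all genes. The intervals of Socs1 at D0 and D19 overlapped, and it was not called without the members of high CD11b tag. Without members holding a UMI of another lineage none of 7 was higher and 4 were lower. Over all genes those were 148 and 202 of 823. In conventional cells 4 of the 9 were higher and 1 lower. Without the 3 deepest members of each library none of the 7 still measured was higher and 3 were lower, beside 110 and 232 of 1053 over all genes. At D5 Pim1 was the 1 called gene of 8, and it was lower, beside 12.4% lower and 11.4% higher over all genes. Smad7, the inhibitor of TGF-beta signalling, was lower at D19 by -1.04 beside 0.29 in conventional cells, and Pmepa1 was higher by 1.23 beside 0.98. Pmepa1 rested on 19 and 34 UMIs, and it was under the minimum of 50 without the 3 deepest members or without those holding a UMI of another lineage. Of 5 measured genes of the interferon list none was higher on either day, beside 11.4% at D5 and 17.6% at D19 over all genes. In that list 1 was lower at D5 and 2 at D19, beside 12.4% and 23.4% over all genes. Bst2 was lower on both (-1.84 and -0.85), and it was lower in conventional cells too (-0.68 and -1.62).

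Immediate early and heat shock genes, which cell isolation can induce, were lower in both classes. Of 14 measured at D5, 6 were lower in the members and 11 in conventional cells, and of 13 at D19, 11 and 10 were lower, with none higher. Over all genes, 171 of 1381 were lower in the members and 80 in conventional cells at D5, and 323 of 1383 and 201 at D19. Hspa1b, an inducible heat shock protein, had 62 UMIs at D0 and none at D5 and D19, at least 13.1-fold and 14.3-fold lower against a floor of 3 UMIs. In conventional cells Hspa1b was at 236, 16.5 and 2.37 CPM. Jun was at 665, 464 and 187 CPM in the members and 762, 294 and 163 in conventional cells. The part of these genes in the other differences between days was not tested.

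UMIs of cell division genes at D19 lay mostly in 3 cells. At least 5 UMIs of 9 cell cycle genes were found in none of 73 members at D0, which allows a share of up to 4.11% by 3 counts of 73 (exact upper limit 4.93%), in 1 of 35 at D5 (2.86%, 0.0723% to 14.9%) and in 3 of 50 at D19 (6%, 1.25% to 16.5%). In conventional cells there were 5 of 518, 3 of 324 and 2 of 328. The intervals of the members overlapped. Of 17 listed genes, 4 reached 50 UMIs over D0 and D19. Hmgb2 went from 144 to 378 UMIs and Tubb5 from 94 to 139, both past the fold. Pcna (28 and 30 UMIs) and Stmn1 (7 and 57) were past it too, but Stmn1 reached the minimum only through D19, so a count over these genes is not read against the 17.6% higher over all genes. The counting intervals of Pcna at D0 and D19 overlapped. The 3 cells held 84.5% of the list's UMIs, and without the 3 deepest members none of the 2 genes still measured was higher and 1 was lower.

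Of 7 measured glycolysis genes 4 were higher in the members at D19 (17.6% of all genes) and 3 did not pass the fold, while 4 were lower in conventional cells (201 of 1383 genes). Gapdh stood at 571, 589.6 and 897 CPM and Ldha at 274, 283 and 493. Without the 3 deepest members, none of 6 was higher and 2 were lower (110 and 232 of 1053 over all genes), with Gapdh at -0.22 and Ldha at -0.45.

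The largest changes over all genes were mostly carried by few cells. At D5, the 5 largest rises were Chil3 (5.18), Lyz2 (5.12), Apoe (4.58), Cxcl2 (4.07) and Tmem176a (3.56), genes of macrophages and other myeloid cells, with all their UMIs in 1, 3, 4, 1 and 3 members. The summed myeloid marker list stood at 32.4 CPM at D0, 1746 at D5 and 17 at D19. At D19, the 5 largest rises were Ctrb1 (4.92), Mt1 (4.63), Try5 (4.53), Prss2 (4.36) and Cela2a (4.10), of which 4 encode digestive enzymes of the pancreas. Ctrb1 had 69 UMIs in 9 members at D19 and none at D0, at least 33.2-fold higher, and it stood at 5800.1 CPM in free RNA at D19, against 62.8 at D0.

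Falls were led by Hspa1b on both days. Ccl5, a chemokine of effector T and natural killer cells, was lower at D5 by -3.91, at 1048, 60.4 and 472 CPM in 13, 8 and 13 members. The natural killer marker list moved with it, at 262, 9.29 and 119 CPM, and its part in the Ccl5 values was not tested. At D0, 39 of the list's 89 UMIs lay in the member with 8 CD4 tag UMIs. Vps37b, a component of the endosomal sorting machinery, was at 318, 78.9 and 268 CPM. Chd3, a chromatin remodeller, was lower at D19 by -1.88 in the members and -1.54 in conventional cells.

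When genes were ranked among those seen in at least 25% of the members of both libraries, a filter added after seeing the data, Rbm3, Mif and Prdx1 were among the rises. Rbm3, a cold-inducible RNA-binding protein, was at 350.3, 919 and 1474 CPM in 55, 35 and 41 members, and at 367, 796 and 985 CPM in conventional cells. Mif, a cytokine, was at 171, 413 and 663 CPM, which is 1.23 and 1.90, beside 0.18 and 0.01 in conventional cells. Prdx1, a peroxidase, was at 153, 218 and 544 CPM, which is 1.76 at D19 beside 0.10. The 3 genes were thus higher at D19 in the members, and of them Rbm3 was higher in conventional cells as well. Without the 3 deepest members of each library Rbm3, Mif and Prdx1 were 1.57, 1.22 and 1.27 at D19. Other rises under this filter rested on few cells. Cebpb, first at D5 (1.63), was 0.39 without the members of high CD11b tag. Hmgb2 (1.90) and Tuba1b (1.54) at D19 changed sign without the 3 deepest members.

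Markers of other cells are given as summed lists, in which Cd79a, Fscn1 and Cd8b1 were at 0 by the rule. The B cell list stood at 421, 316 and 187 CPM, against 21259, 13492 and 21910 in B cells. The mature dendritic cell list stood at 3447, 3524 and 1228 CPM, with 89.7%, 94.2% and 79.9% of its UMIs in 3 cells of each library. The CD8 T cell and stromal lists were at 0, the gamma delta T cell list at 2, 0 and 4 UMIs, and the plasma cell list at 2, 1 and 0.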

How the data were processed

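The deposited matrices, 1 per library, hold raw UMI counts of 32285 genes and 11 antibody tags for every barcode. Per the file headers they were counted with Cell Ranger 4, while the paper's software list gives a later version. The submitters' processing notes name mm10. RNA UMIs per library were 45317389, 47653941 and 32013882. Barcodes were filtered and classed as the report states. Doublets were scored with Scrublet (scanpy 1.11.5, Python 3.11.15) and kept. UMIs were summed over the members of a library and scaled to CPM, and differences were taken on log2(CPM + 10) for genes with 50 or more UMIs over both libraries, or in each library between classes. These differences understate changes of low genes. Shares have exact Clopper-Pearson 95% intervals and sums exact Poisson intervals. UMIs are molecules, and the intervals cover counting error only. With 1 library per day no p-value was computed. Scripts were tested on simulated data. Alternatives were another Foxp3 threshold, cell, gene and depth filters, the pseudocount, TMM scaling (edgeR 4.0.16), and other tag bounds.

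Values of some listed genes are not reported here. The members and the gene lists were chosen with earlier results of these data known. Genes named are those of the lists, the 5 largest rises and falls by day, the 10 genes with the largest smallest difference between classes in each direction, and the 10 most variable, leaving out mitochondrial, ribosomal, immunoglobulin and Gm-numbered genes. Positions came from the RefSeq gene table (GRCm38.p6).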

Additional observations from a re-analysis of the deposited data

Results flagged for a closer look

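A few listed genes moved past the fold in opposite directions in regulatory and conventional CD4 T cells of the same libraries. They were picked for this, and no count over all genes is given beside them. The difference between the classes was not tested, since each day has 1 library. Values are differences of log2(CPM + 10) from D0.

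S100a4 was 2.18 in regulatory and -0.83 in conventional cells at D5. S100a6 was 1.55 and -0.68 at D5, and 2.58 and -0.70 at D19. Lgals1 was 1.51 and -0.76 at D19. Stmn1, a microtubule regulator of dividing cells, was 3.04 and -1.05 at D19, with 57 UMIs in 6 members of that library. The glycolytic genes Eno1 (0.56 and -0.74) and Gapdh (0.64 and -0.61) moved apart at D19 as well. Sh2d1a, the adaptor SAP used in contacts with B cells, was -0.76 in regulatory and 0.62 in conventional cells at D19, from 229.6 CPM at D0 to 132 against 68.9 to 112. For Eno1 and Sh2d1a the counting intervals of the members at D0 and D19 overlapped. Without the 3 deepest members of each library S100a4 was 0.97 at D5, S100a6 was 2.18 and 2.13, Sh2d1a was -0.56, Eno1 was 0.26 and did not pass the fold, and Lgals1 (-0.37) and Gapdh (-0.22) changed sign. Stmn1 then had under 50 UMIs. With the mean CPM of single cells, Sh2d1a (-0.26), Eno1 (0.13), Lgals1 (0.35) and Gapdh (-0.065) did not pass the fold at D19, and with 2 or more Foxp3 UMIs required neither did S100a6 at D5 (0.19).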

How the results depend on the processing

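Of the summary values, 52 moved by less than their interval or by less than 1.5 times, and 42 moved by more. Of the values of named genes, 1410 kept their direction and side of the fold, 48 no longer passed it, 9 newly passed it and 13 changed sign. The cause was not tested for any of the changes below.

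The share of CD4 T cells at D0, D5 and D19 was 6.16%, 5.26% and 3.53% with 2 or more Foxp3 UMIs, 4.60%, 5.81% and 4.09% for members with a Cd4 UMI, 5.13%, 4.70% and 3.89% with no Cd4 requirement for the other T cells, and 19.2%, 13.9% and 18.2% with cells thinned first. Genes past the fold at D5 numbered 328, and 202 with 2 or more Foxp3 UMIs, 194 without members holding other lineages' UMIs, 1050 with a minimum of 20 UMIs and 4976 with no minimum. At D19 the 567 genes became 257, 350, 1509 and 5840 in that order, and 342 without the 3 deepest members of each library. The share of higher genes among those called went from 47.9% to 34.5% at D5 without other lineages' UMIs, and from 43.0% to 32.2% at D19 without the 3 deepest members. Between classes, the 106 genes became 180 with a minimum of 20 UMIs and 185 to 304 with a library left out, which asks for 2 libraries in place of 3.

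Signs changed at D5 for Lgals1 (-1.33) and Hmgb2 (-1.56) with 2 or more Foxp3 UMIs, and for Lef1 (0.014), Lgals1 (-0.84) and Hmgb2 (-0.71) without other lineages' UMIs. They changed at D19 without the 3 deepest members for Hmgb2 (-0.67), Tuba1b (-0.0088), Cst3 (0.39), Lgals1 (-0.37), Gapdh (-0.22) and Ldha (-0.45), and with the mean CPM of single cells for Gapdh (-0.065) and Ldha (-0.41).

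Members above B cells depended on the percentile. At the strictest of the 3 tried it was 19.2%, 48.6% and 4% for the CD3 tag, 1.37%, 2.86% and 26% for CD4, and 0% at D5 and 0% at D19 for CD8a. At the 95th it was 98.6% at D0 and 94% at D19 for CD3, 98.6% and 98% for CD4, and 8.22% and 14% for CD8a. After a centred log ratio, CD3 at D5 was 85.7%, CD4 at D0 was 56.2% and CD8a at D5 was 0%. The settings without the 3 deepest members, without cells of high CD11b tag, with the 25% gene filter and at the 95th percentile were chosen after seeing the data. No paired analysis was possible because each day is 1 library and no test was made.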

Other observations

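The CD80 antibody tag, not used in the comparisons above, was among several tags that were higher in regulatory than in conventional CD4 T cells of each library, with medians of 17, 16 and 27 UMIs per cell at D0, D5 and D19 against 10, 10 and 7. The members' total over all tags was lower than that of conventional cells in the same libraries. The CD8a tag, which these cells should lack, was higher in the members as well, with medians of 24, 23 and 9.5 UMIs against 17, 13 and 5. Tags at low levels differed the same way in part, with medians of 2, 2 and 2 against 1, 1 and 1 for CX3CR1 and of 3, 2 and 3.5 against 2, 2 and 1 for F4_80. Above the 95th percentile of B cells for CD80 lay 2.74%, 14.3% and 14% of members and 2.90%, 2.78% and 5.49% of conventional cells.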
